A study of Homo sapiens with 8 samples.

Results

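TGF-β signalling genes were followed in CAPAN-2 cells, a human pancreatic adenocarcinoma line, in which either the receptor ErbB2 or the membrane mucin MUC4 had been knocked down. The set held 10 genes: the ligands TGFB1 and TGFB2, the receptors TGFBR1, TGFBR2 and TGFBR3, the intracellular mediators SMAD2, SMAD3, SMAD4 and SMAD7, and the TGF-β-induced matrix protein TGFBI. Members were taken by gene name, as every probe whose accession led to one of these symbols, and TGFBI was selected on its change in the MUC4-KD arrays, which had been seen beforehand. That gave 16 probes of the 41000 on the array, with 4 for SMAD2, 2 each for TGFB2, TGFBR2 and SMAD3, and 1 for each of the other genes.

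RNA of 4 stable ErbB2-KD clones (EV7, EV12, EV9 and EV18, arrays 1 to 4 in this order), which carried an ErbB2 shRNA plasmid and were selected in puromycin, was hybridised against a pool of NT clones raised with the empty plasmid. RNA labelled MUC4-KD on 4 further arrays, from clones infected with a MUC4 shRNA retrovirus and selected in G418, was hybridised against a pool of Mock clones raised with the empty retrovirus. The labels do not name the MUC4-KD clones. The methods give 4 of them, but the labels do not exclude that arrays of opposite dye held the same RNA, in which case n = 4 would count arrays and the SD and p-values would be partly technical. With arrays 1 and 3 and arrays 2 and 4 averaged, which leaves 2 values, 3596 of all probes passed in this experiment in place of 5131. Arrays 1 and 3 correlated at r = 0.83 and arrays 2 and 4 at 0.358, against 0.818 for arrays 1 and 2. The other pairing of opposite dyes, 1 with 4 and 2 with 3, was not tried. Each knockdown line was a clone isolated by limiting dilution, and each pool counted as 1 control sample, so that no test here includes the spread between control clones. The knockdown was in Cy5 on ErbB2-KD arrays 1 and 2 and on MUC4-KD arrays 3 and 4, and in Cy3 on the other arrays.

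TGF-β is secreted in a latent form, held by its own propeptide and by latent TGF-β binding proteins, and is released by integrins and other activators. The active ligand brings the type II receptor TGFBR2 together with the type I receptor TGFBR1, with TGFBR3 (betaglycan) as a co-receptor, and TGFBR1 then phosphorylates SMAD2 and SMAD3, which join SMAD4 and enter the nucleus. SMAD7 is an inhibitory SMAD that the pathway itself induces, and TGFBI is a secreted matrix protein named for its induction by TGF-β. In pancreatic cancer the pathway is known both for growth arrest of epithelial cells, often lost through SMAD4, and for invasion.

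All values are log2 ratios of knockdown over control unless said otherwise, so that 1 is a 2-fold higher level. The direction follows the dyes given in the labels. For MUC4, SMAD3, TGFBR2, ITGB6, INHBB and THBS1 in MUC4-KD this direction is opposite to that of the study, but for TGFB1 it is not. For ITGB6 in ErbB2-KD it is opposite as well. The study did not rest on the arrays alone for MUC4. It reported almost complete or total loss of the protein in MUC4-KD clones by Western blotting, and its absence in their tumours. By qRT-PCR it found less MUC4 and more TGF-β1 mRNA in MUC4-KD cells. For ErbB2-KD cells it likewise reported less ErbB2 and more integrin β6 (ITGB6) and TGF-β1 mRNA by qRT-PCR. Western blotting there showed almost complete or total loss of the ErbB2 protein. Of the 4 probes for MUC4 itself, 2 passed the test, and both were above Mock in the RNA labelled MUC4-KD (1.84 ± 0.57 and 1.34 ± 0.84, SD, n = 4, limma adjusted p = 0.00804 and 0.0355). Turning the labels of that experiment would change the sign of every ratio of MUC4-KD over Mock below and leave its size. Differences between the experiments would change in size too, and the levels of these 2 RNAs would change places. One of the ERBB2 probes was lower on 4 of 4 ErbB2-KD arrays (-0.40 ± 0.12), with a limma adjusted p of 0.145, and the other was at 0.04. Between 56.7% and 74.2% of spots were well above background in a channel. ErbB2-KD array 2 (EV12) was the brightest, with median signals of 593 in Cy5 and 248 in Cy3. Its ratios correlated with those of arrays 1, 3 and 4 at r = 0.291, 0.392 and 0.206. Each ErbB2-KD clone was on 1 array, so clone and array cannot be told apart. Log2 ratios of different arrays correlated with r between 0.206 and 0.719 in ErbB2-KD and between 0.324 and 0.83 in MUC4-KD, where array 4 had the 3 lowest values (0.324, 0.358 and 0.52, against 0.675 to 0.83 among arrays 1 to 3). The line's epithelial identity was checked with markers: 9 of 9 epithelial probes passed the filter in both experiments, 0 of 8 fibroblast probes did, of leukocyte probes only that for CD68 did, and of endothelial probes only 1 for VWF, in ErbB2-KD.

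TGFBI, SMAD3 and TGFBR2 stood apart from the other members in the MUC4-KD arrays, and none of the 10 genes passed the test in ErbB2-KD. In the RNA labelled MUC4-KD, TGFBI was 16.6-fold above the RNA labelled Mock, TGFBR2 5.05-fold at its brighter probe, and SMAD3 2.88-fold at its brighter probe and 4.02-fold at the other, each higher on 4 of 4 arrays. In bulk RNA, more cells expressing a gene and more RNA per cell cannot be told apart. Of 15 member probes tested in ErbB2-KD, 0 passed an adjusted p under 0.05 and 1, a TGFBR2 probe, had an unadjusted p under 0.05. Of all 23869 probes tested, 1.43% passed and 18% had an unadjusted p under 0.05. The median ratio of the member probes was 0.05 in ErbB2-KD, against -0.01 over all probes tested. Because the MUC4-KD values were known when the members were chosen, they are given as a description with no test. Of 14 member probes measured there, 4 were at least 2-fold higher and higher on 4 arrays, and 0 were as much lower, beside 3.8% and 2.54% of all 25047 probes tested. By the test, 12% of all probes passed as higher and 8.48% as lower in this experiment. The median of the 14 was 0.35, against 0.01 over all probes, and nothing about the members is read from these shares.

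**Figure D1:**
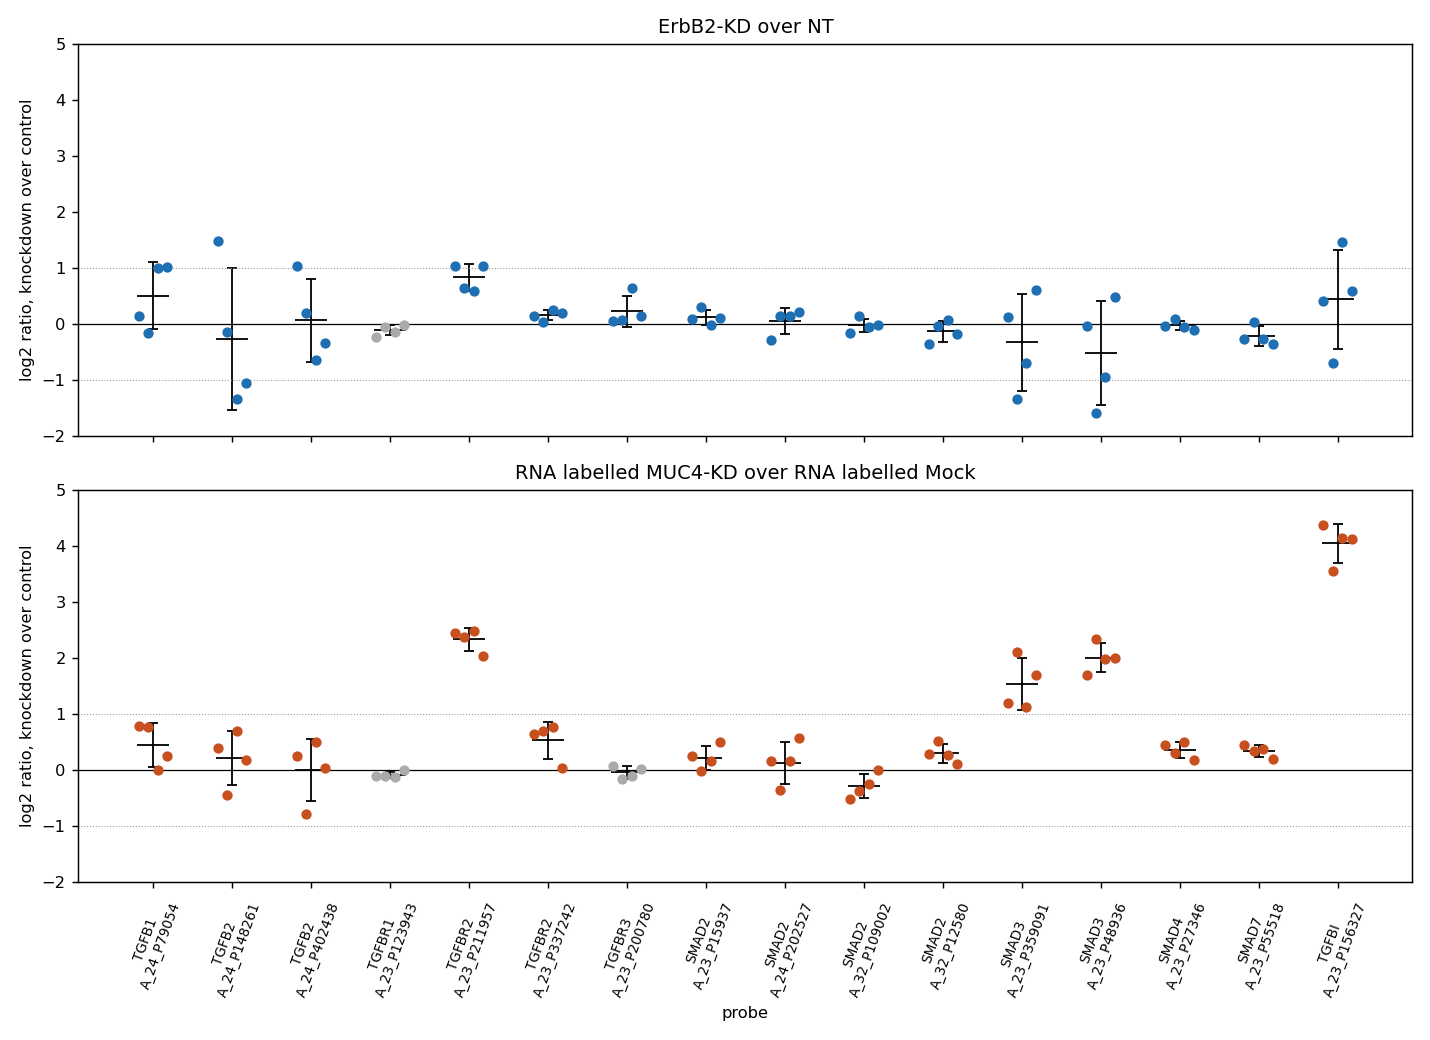
Log2 ratio of knockdown over control (vertical axis) for the 16 member probes (horizontal axis) on the 4 arrays of each experiment, in array order from left to right, with the mean and SD in black and probes that failed the background filter in grey. In the lower panel TGFBI lies between 3.56 and 4.37, above every other member, while in the upper panel no probe has a mean above 0.83.

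The matrix protein TGFBI had the largest ratio of the members. The 4 values in the RNA labelled MUC4-KD were 4.37, 3.56, 4.15 and 4.12, a mean of 4.05 ± 0.35 (SD, n = 4), which placed its probe A_23_P156327 at number 4 of 25047 by size. Before any normalization, its spot read 78125, 54072, 98929.5 and 102494 units in the channel labelled MUC4-KD and 9812, 12707, 3663 and 2449 units in that labelled Mock. The channels did not overlap, in either dye orientation. Under 11 other processing settings the mean lay between 4.05 and 4.26, and leaving out any 1 array moved it between 3.94 and 4.22. Of the 11, only another background offset, the scanner software's own ratios and median centring changed the ratios themselves. The rest refit the same ratios, so their means could hardly differ. In ErbB2-KD the clones did not move together: TGFBI was at 0.41 in EV7, -0.71 in EV12, 1.45 in EV9 and 0.58 in EV18. The mean of 0.43 ± 0.89 did not pass (limma adjusted p = 0.553).

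SMAD3, the receptor-regulated SMAD that binds DNA, followed with both of its probes. Probe A_23_P48936 read 1.70, 2.35, 1.98 and 2.00 in the RNA labelled MUC4-KD, a mean of 2.01 ± 0.26, and A_23_P359091 read 1.19, 2.10, 1.12 and 1.70, a mean of 1.53 ± 0.46. Every value of both probes was above 1. In ErbB2-KD the same probes split the clones. EV12 and EV9 were low, at -1.60 and -0.95 by the first probe and -1.35 and -0.69 by the second. EV7 and EV18 were near or above 0, at -0.04 and 0.48 by the first and 0.12 and 0.60 by the second. The means of -0.53 ± 0.93 and -0.33 ± 0.86 did not pass (limma adjusted p = 0.482 and 0.65). A clone with low SMAD3 in ErbB2-KD was in Cy5 (EV12) as well as in Cy3 (EV9), so dye did not separate them.

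TGFBR2, the ligand-binding type II receptor, was higher on every array of both experiments by both probes. The brighter probe, A_23_P211957, read 2.45, 2.37, 2.48 and 2.04 in the RNA labelled MUC4-KD, a mean of 2.34 ± 0.20. In ErbB2-KD it read 1.04, 0.64, 0.59 and 1.04, a mean of 0.83 ± 0.24 or 1.78-fold, and it was the member with the largest ErbB2-KD ratio. Its limma adjusted p of 0.0504 missed the threshold. It passed under 3 of the other settings, with adjusted p = 0.0495 on the scanner software's own ratios, 0.00738 with slide as a random block and 0.00724 in 1 fit over 8 arrays, and ranged up to 0.285 over all settings. The dimmer probe, A_23_P337242, gave 0.53 ± 0.33 in the RNA labelled MUC4-KD and 0.15 ± 0.09 in ErbB2-KD (limma adjusted p = 0.51). It was well above background in the control on 3 of 4 arrays of each experiment, and on the scanner software's own ratios (Feature Extraction) its means were 1.71 and 0.82, so that its size depended on the processing.

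The other receptors were at the edge of detection. TGFBR1, the type I receptor, was well above background in the knockdown on 0 of 4 arrays and in the control on 2 of 4, in each experiment, and was not tested in either. TGFBR3 was above background in both RNAs on 2 of 4 MUC4-KD arrays and was not tested there. In ErbB2-KD its values were 0.05, 0.07, 0.64 and 0.14, a mean of 0.23 ± 0.28 (limma adjusted p = 0.462), with clone EV9 apart from the rest. On the scanner software's own ratios this mean was 0.99.

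**Figure D2:**
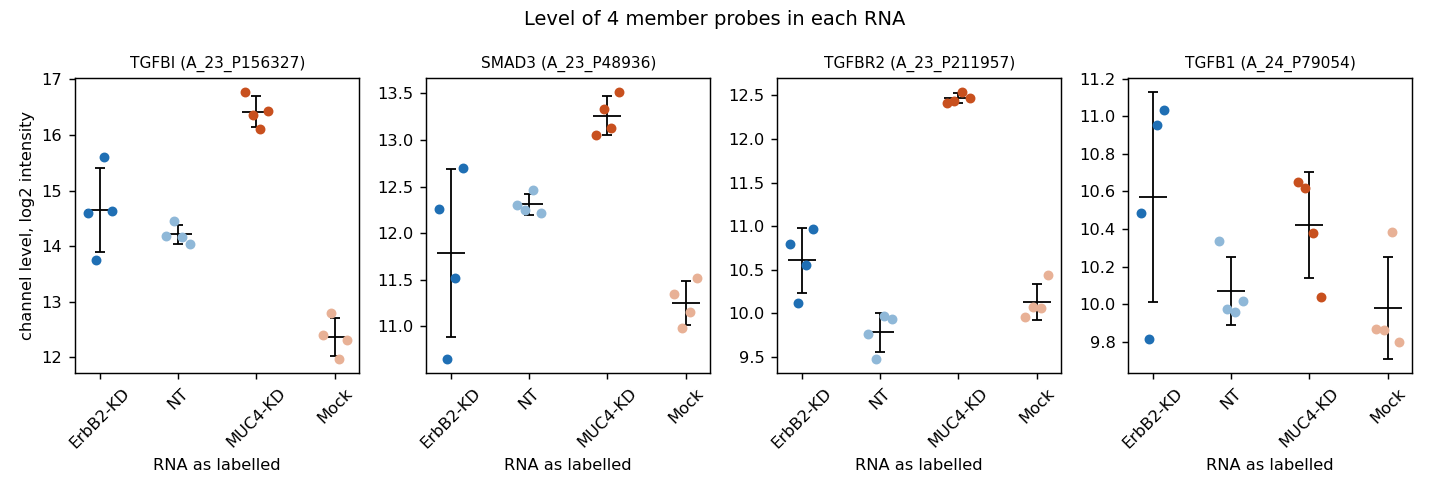
Normalized channel level (vertical axes, log2 intensity, a separate scale for each probe) of TGFBI, SMAD3, TGFBR2 and TGFB1 in the 4 RNAs, 4 arrays each, with mean and SD in black. For TGFBI, SMAD3 and TGFBR2 the points of the RNA labelled MUC4-KD lie above all points of the other 3 RNAs, and for TGFB1 the 4 RNAs overlap.

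The ligand TGFB1 gave values that separated by dye. In ErbB2-KD it read 0.15 and -0.16 in EV7 and EV12, labelled with Cy5, and 1.00 and 1.01 in EV9 and EV18, labelled with Cy3. The RNA labelled MUC4-KD read 0.78 and 0.76 on the arrays with the knockdown in Cy3 and 0.00 and 0.24 on those with it in Cy5. Over both experiments the 4 arrays with the knockdown in Cy3 lay between 0.76 and 1.01, and the 4 with it in Cy5 between -0.16 and 0.24. TGFB1 was the only member probe of the 14 tested in both experiments without overlap between the orientations. Of all 22995 probes 8.01% had none, so nothing about the members is read from this count. The means were 0.50 ± 0.60 in ErbB2-KD (limma adjusted p = 0.333) and 0.45 ± 0.39 in the RNA labelled MUC4-KD. With a term for the dye in the fit the ErbB2-KD limma adjusted p was 0.111. The mean stayed at 0.50, which was fixed in advance because the dyes were balanced over the arrays. In ErbB2-KD, dye and clone cannot be told apart.

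TGFB2 scattered between arrays in both experiments. Probe A_24_P148261 read 1.48, -0.15, -1.34 and -1.06 in ErbB2-KD, and A_24_P402438 read 1.04, 0.19, -0.65 and -0.34. Both probes were highest in EV7 and lowest in EV9, and neither mean passed (-0.27 ± 1.27 and 0.06 ± 0.74, limma adjusted p = 0.819 and 0.942). For the RNA labelled MUC4-KD the means were 0.21 ± 0.48 and 0.00 ± 0.56, with array 2 the lowest for both.

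The remaining SMADs varied less between arrays. SMAD4, the common partner, read 0.45, 0.30, 0.50 and 0.17 in the RNA labelled MUC4-KD (0.36 ± 0.15) and between -0.11 and 0.09 in ErbB2-KD (-0.03 ± 0.08, limma adjusted p = 0.932). SMAD7, the inhibitor, read 0.44, 0.34, 0.37 and 0.19 in the RNA labelled MUC4-KD (0.34 ± 0.11) and -0.28, 0.04, -0.27 and -0.36 in ErbB2-KD (-0.22 ± 0.18, limma adjusted p = 0.4). Both were higher on 4 of 4 MUC4-KD arrays and lower on 3 of 4 ErbB2-KD arrays. The 4 probes of SMAD2, the other receptor-regulated SMAD, had means between -0.13 and 0.12 in ErbB2-KD, with limma adjusted p between 0.634 and 0.927. In the RNA labelled MUC4-KD 3 of them had means between 0.13 and 0.30, while the dim probe A_32_P109002 was lower on 4 of 4 arrays (-0.29 ± 0.22), so the probes of SMAD2 did not share a direction.

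**Figure D3:**
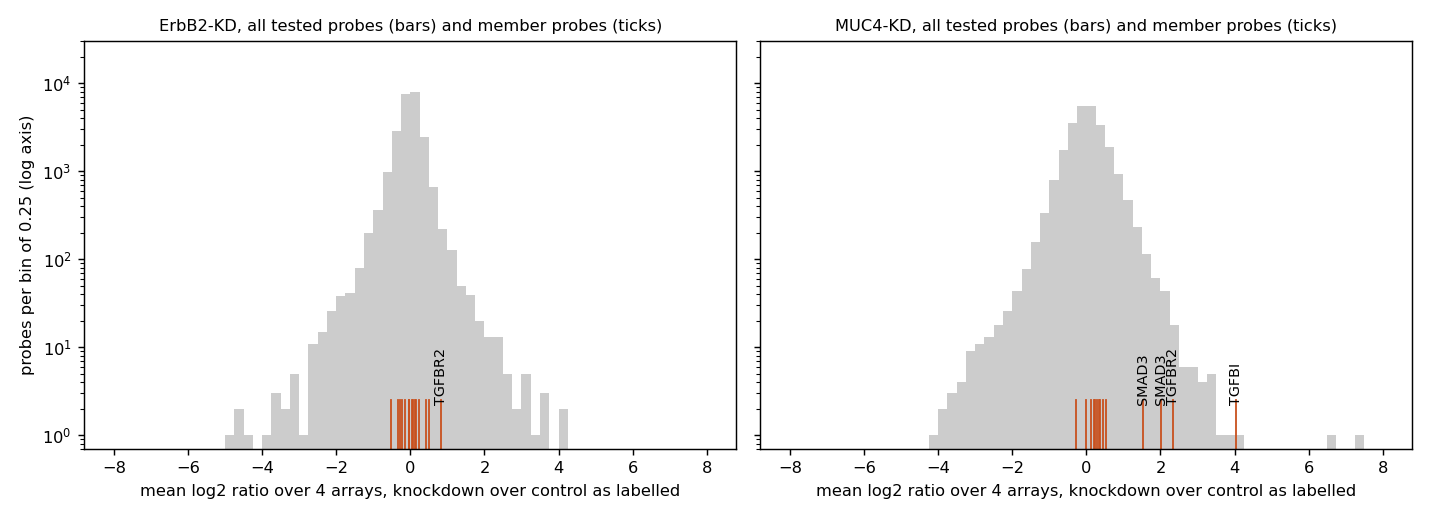
Number of probes tested (vertical log axis, grey bars of width 0.25) by mean log2 ratio over 4 arrays (horizontal axis) in ErbB2-KD on the left and MUC4-KD as labelled on the right, with the member probes as orange ticks. TGFBI at 4.05 lies near the far right of the MUC4-KD probes, TGFBR2 and both SMAD3 probes lie in the upper tail between 1.53 and 2.34, and all other members lie in the bulk.

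Levels of 1 probe could also be set side by side in the 4 RNAs, after scaling the channels of all arrays to each other. TGFBI was at 16.42 ± 0.27 in the RNA labelled MUC4-KD, 14.65 ± 0.76 in ErbB2-KD, 14.21 ± 0.18 in NT and 12.37 ± 0.34 in Mock (log2 intensity, SD, n = 4 arrays). ErbB2-KD and NT overlapped within 1 SD, and the other neighbours in this order did not. The SDs of NT and Mock are technical, since each was 1 pool measured on 4 arrays. The control pools themselves therefore differed by 1.84, where NT minus Mock lay between -0.80 and 0.83 for the middle 90% of 23081 probes, and the RNA labelled MUC4-KD was 2.21 above NT. The pools were never on the same array, so pool and experiment cannot be told apart in this difference. All statements here on Mock, and on how the pools compare, also rest on the labels. With these turned, the levels given for MUC4-KD and Mock would change places. The SMAD3 probe A_23_P48936 had the order MUC4-KD, NT, ErbB2-KD and Mock, at 13.26 ± 0.21, 12.31 ± 0.11, 11.78 ± 0.90 and 11.25 ± 0.23. Only the step from MUC4-KD to NT exceeded the spread, and the pools differed by 1.06. TGFBR2 overlapped between the pools, at 10.13 ± 0.21 in Mock and 9.78 ± 0.23 in NT, with ErbB2-KD at 10.61 ± 0.37 and the RNA labelled MUC4-KD at 12.47 ± 0.06, the only level beyond the spread of its neighbour. The second probes of SMAD3 and TGFBR2 were also highest in the RNA labelled MUC4-KD, with that step alone beyond the spread. SMAD4 at A_23_P27346 was at 8.93 ± 0.03 in the RNA labelled MUC4-KD, above the neighbouring NT at 8.60 ± 0.25 by more than the summed SD, and its other RNAs overlapped. For TGFB1, both TGFB2 probes, the 4 SMAD2 probes, SMAD7 and TGFBR3, all neighbouring levels overlapped, with 0.59 or less between the highest and the lowest RNA.

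The 250 bases before the annotated gene start are shown for the 3 members with the largest ratios in the MUC4-KD arrays, the ones that the values above turn on (RefSeq, GRCh38.p14, forward strand, 5′ to 3′; capitals mark a GC box, GGGCGG on either strand). The windows were chr5:136028738-136028987 for TGFBI, chr15:67065352-67065601 for SMAD3 and chr3:30606106-30606355 for TGFBR2.
TGFBI: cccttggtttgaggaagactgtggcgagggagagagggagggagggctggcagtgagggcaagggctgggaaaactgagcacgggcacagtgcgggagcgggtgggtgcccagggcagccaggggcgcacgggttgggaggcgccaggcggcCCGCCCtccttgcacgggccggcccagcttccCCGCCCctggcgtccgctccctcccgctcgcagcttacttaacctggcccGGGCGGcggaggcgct
SMAD3: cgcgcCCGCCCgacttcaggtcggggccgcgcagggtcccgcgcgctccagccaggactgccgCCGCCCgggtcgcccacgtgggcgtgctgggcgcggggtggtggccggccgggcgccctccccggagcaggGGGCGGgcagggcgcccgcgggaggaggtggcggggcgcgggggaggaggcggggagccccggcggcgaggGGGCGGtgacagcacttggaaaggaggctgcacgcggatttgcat
TGFBR2: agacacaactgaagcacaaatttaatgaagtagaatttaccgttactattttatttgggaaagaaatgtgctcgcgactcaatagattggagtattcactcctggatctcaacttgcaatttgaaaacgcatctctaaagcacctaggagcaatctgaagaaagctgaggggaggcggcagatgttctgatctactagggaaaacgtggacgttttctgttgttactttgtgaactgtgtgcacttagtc
TGFBI held 3 GC boxes and SMAD3 held 4, in sequence of 72.8% and 80.8% G and C. The TGFBR2 window held 0 and was at 40.8%. Over all 10 members, 6 windows held GGGCGG on either strand (SMAD2, SMAD3, SMAD4, TGFB1, TGFBI and TGFBR3), against 42.2% of 27305 gene starts. For TGFBR3 the start used lies inside the annotated span of the gene. The core SMAD element CAGAC was found in 2 (SMAD7 and TGFB2), against 37.9%, and the AP-1 element TGAGTCA and the SMAD palindrome GTCTAGAC in 0, against 4.15% and 0.183%. These matches are a description of the letters in the window.

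The genes whose 8 log2 ratios lay nearest to those of TGFBI, among 17120 probes tested in both experiments with a symbol, were NDRG1, MYEOV, VEGFC, MALAT1 and TGFBR2, with a root mean square difference from 0.98 to 1.39. NDRG1, a stress-induced gene, was at 2.87 ± 0.27 in the RNA labelled MUC4-KD and 0.43 ± 0.91 in ErbB2-KD. VEGFC, a lymphangiogenic growth factor, was at 2.63 ± 0.57 and 0.03 ± 0.29, and MYEOV at 3.06 ± 0.62 and 0.22 ± 0.71. The long noncoding RNA MALAT1 was at 2.86 ± 0.96 and -0.59 ± 0.71. TGFBR2 is a member, and members were chosen with the MUC4-KD values known, so nothing is read from its place among the 5.

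The wider pathway was described by 57 other genes in 4 lists, 56 of them with a probe. These lists were written with earlier results of these data known. Their counts and p-values are therefore a description and no independent test of the pathway. In ErbB2-KD, 2 of 85 tested probes passed as higher and 3 as lower, with a median of -0.04. In the RNA labelled MUC4-KD, 22 of 86 passed as higher and 10 as lower, with a median of 0.25. These shares stand beside the 1.43% of all probes in ErbB2-KD and the 12% and 8.48% in MUC4-KD given above. With arrays 1 and 3 and arrays 2 and 4 averaged, 15 passed as higher and 8 as lower in MUC4-KD. Leaving out 1 array changed the count there to between 2 (without array 3) and 38 (without array 4), with 8 and 10 without arrays 1 and 2. In ErbB2-KD it fell to 0 without array 1, 3 or 4.

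Among other ligands and receptors, the activin subunit INHBB was lower in the RNA labelled MUC4-KD by both probes. A_23_P153964 read -3.12, -2.14, -3.19 and -0.44 (mean -2.22 ± 1.28, limma adjusted p = 0.0275), and A_23_P153958 had a mean of -1.70 ± 1.08 (adjusted p = 0.0346). Array 4 was the least changed for both. These were the 2 of 11 probes of the list that passed there, and 0 passed as higher, beside 8.48% and 12% of all probes. In ErbB2-KD, 0 of 12 passed and 1 had an unadjusted p under 0.05, beside 18% of all probes. INHBB was at 1.28 ± 1.53 and the type I receptor ACVR1C at 1.06 ± 0.73 (limma adjusted p = 0.294 and 0.134). The activin subunit INHBA was at 0.83 ± 0.74 in the RNA labelled MUC4-KD and ACVR2B at 0.27 ± 0.41, neither past the test (limma adjusted p = 0.0795 and 0.285).

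Of the genes that hold or release latent TGF-β, both subunits of integrin αvβ6, which activates latent TGF-β, lay above Mock in the RNA labelled MUC4-KD, and thrombospondin 1 (THBS1), another activator, lay below it. ITGB6 read 2.06, 1.68, 1.76 and 0.16 (mean 1.42 ± 0.85, limma adjusted p = 0.0325) and ITGAV, at A_23_P50907, read 1.13, 1.08, 1.34 and 1.49 (mean 1.26 ± 0.19, adjusted p = 0.00458). THBS1 read -1.97, -2.23, -1.66 and -1.46 at A_24_P142118 (mean -1.83 ± 0.34, adjusted p = 0.00364) and had a mean of -1.25 ± 0.70 at its other probe (adjusted p = 0.0295). The other ITGAV probe was at 0.34 ± 0.20 and did not pass (limma adjusted p = 0.0906). In all, 2 of 17 probes of this list passed as higher and 2 as lower, beside 12% and 8.48% of all probes. The binding protein LTBP4 (0.42 ± 0.42) and NRROS (-0.36 ± 0.24) had the largest values that did not pass (limma adjusted p = 0.132 and 0.0945).
In ErbB2-KD, 0 of 15 probes passed and 5 had an unadjusted p under 0.05, beside 18% of all probes, among them the same activators with the opposite sign. THBS1 read 2.03, 5.93, 4.47 and 1.86 at A_24_P142118 (mean 3.57 ± 1.97, limma adjusted p = 0.0762), and ITGB6 read -0.87, -0.65, -1.72 and -0.97 (mean -1.05 ± 0.46, adjusted p = 0.0658). All 4 clones shared the sign for each.

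Regulators held the only gene of these lists that passed as higher in ErbB2-KD. SMURF2, a ubiquitin ligase that targets SMADs and the receptor, rose by both probes, with 1.26, 1.75, 0.64 and 1.14 at A_23_P100754 (mean 1.20 ± 0.45, limma adjusted p = 0.0494) and a mean of 0.95 ± 0.23 at A_24_P210888 (adjusted p = 0.0369). BAMBI, a decoy receptor, had the largest change, with -5.35, -2.79, -2.29 and -5.14 (mean -3.89 ± 1.57 or 14.9-fold lower, adjusted p = 0.04), and clones EV7 and EV18 were the lowest. PMEPA1, a TGF-β-induced inhibitor of SMAD activation, fell by 0.94 ± 0.27 at A_23_P57089 (adjusted p = 0.0415). Its other probe was at -1.07 ± 1.30, with clone EV12 at 0.54, and did not pass (adjusted p = 0.306). The largest values of genes that did not pass were those of SMURF1 (0.63 ± 1.37) and NEDD4L (-0.57 ± 0.58), with limma adjusted p = 0.567 and 0.272. In all, 2 of 30 probes passed as higher and 2 as lower, beside 1.43% of all probes in either direction.

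In the RNA labelled MUC4-KD, 11 of the 30 regulator probes passed as higher and 3 as lower, beside 12% and 8.48% of all probes. The probes that passed belonged to 6 genes as higher and 2 as lower. All 4 probes of FKBP1A, which binds the type I receptor and holds it inactive, were higher, with means between 0.71 and 1.25 and limma adjusted p between 0.0182 and 0.0351. The ubiquitin ligases NEDD4L (0.98 ± 0.41, adjusted p = 0.0196, and 2 further probes), RNF111 (0.86 ± 0.14, adjusted p = 0.00893) and SMURF2 (0.60 ± 0.28 at A_24_P210888, adjusted p = 0.036) were higher too, as was 1 probe of the SMAD phosphatase PPM1A (0.70 ± 0.13, adjusted p = 0.0147). Its other 2 tested probes were at -0.29 ± 0.39 and -0.22 ± 0.51 and did not pass. The other SMURF2 probe was at 0.61 ± 0.50 and did not pass (adjusted p = 0.0759). SKI, a corepressor of SMADs, was lower by 2 of its 3 probes (-1.18 ± 0.79 and -0.56 ± 0.26, adjusted p = 0.0412 and 0.0378). PMEPA1 was lower by probe A_24_P413126 (-0.82 ± 0.12, adjusted p = 0.00969) and was at 0.08 ± 0.53 by its other probe. BAMBI split the arrays, at 1.23, -2.35, 0.95 and -1.97, high on arrays 1 and 3 and low on 2 and 4 (adjusted p = 0.58). Each of these pairs held both dye orientations, and the labels do not say whether the arrays of a pair shared a clone. TGFBRAP1 was at -0.56 ± 0.80 (adjusted p = 0.207).

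Of genes known as TGF-β targets, 9 of 28 probes passed as higher and 3 as lower in the RNA labelled MUC4-KD. These shares stood beside 12% and 8.48% of all probes tested. The median of the 28 was 0.49, against 0.01 over all probes. ANGPTL4, a secreted regulator of lipoprotein lipase, read 4.37, 4.63, 4.22 and 2.48 (mean 3.92 ± 0.98 or 15.2-fold, limma adjusted p = 0.00405). Also higher were the basement membrane collagen COL4A1 at A_23_P65240 (1.17 ± 0.53, limma adjusted p = 0.0202), the repressor BHLHE40 (1.16 ± 0.23, adjusted p = 0.00628) and 1 of 5 tested probes of tropomyosin TPM1 (1.04 ± 0.12, adjusted p = 0.00563). The other COL4A1 probe was at 0.15 ± 0.16 and did not pass (adjusted p = 0.349). The cell cycle inhibitor CDKN1A was lower at A_23_P59210, with -1.21, -1.28, -1.15 and -1.23 (mean -1.22 ± 0.06, adjusted p = 0.00348), and both probes of the actin-binding TAGLN were lower (-0.92 ± 0.38 and -0.80 ± 0.25, adjusted p = 0.0207 and 0.0164). The other CDKN1A probe was at -0.64 ± 0.47 and did not pass (adjusted p = 0.0618). CCN2, a matricellular protein often used as a reporter of the pathway, was at -0.37 ± 0.64 and did not pass (adjusted p = 0.296), and was chosen for naming after its values were seen. IL11 (0.81 ± 0.87) and fibronectin FN1 (0.80 ± 1.03 at A_24_P119745) were the largest that did not pass (adjusted p = 0.117 and 0.165).

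In ErbB2-KD 1 of the 28 target probes passed, beside 1.43% of all probes, and 14 had an unadjusted p under 0.05, beside 18%. The 1 that passed was A_24_P360674 of the cell cycle inhibitor CDKN2B, which fell by 1.63 ± 0.62 (limma adjusted p = 0.0418). The other CDKN2B probe was at -0.73 ± 0.41 and did not pass (adjusted p = 0.116). The median of the 28 was -0.23, and 21 of their means were below 0, as were 51.2% of the means of all probes. COL4A1 was at -1.51 ± 0.76 and IL11 at 1.41 ± 0.67, each with 1 sign in all 4 clones (limma adjusted p = 0.0707 and 0.0654). CCN2 was at -0.05 ± 0.75 (adjusted p = 0.952).

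The ratios of both experiments were then compared in 1 fit over 8 arrays. Of 87 pathway probes, 26 differed, 17 with the MUC4-KD ratio above that of ErbB2-KD and 9 below, beside 9.91% of all 25835 probes. By list these were 16 of 28 target probes, 5 of 17 for latency and activation, 3 of 30 regulators and 2 of 12 ligands and receptors. ANGPTL4 differed by 5.20, THBS1 by -5.40 and -3.79 at its probes, ITGB6 by 2.47, ITGAV by 2.01 at A_23_P50907 and COL4A1 by 2.68 (limma adjusted p = 0.00262, 0.0076, 0.0074, 0.0104, 0.00136 and 0.00724). With the MUC4-KD ratios turned, 16 of the 87 differed, and of 21 differing probes of genes named here 4 did so as well. Of these, 3 then had the other sign: RNF111 went from 0.80 to -0.92, ANGPTL4 from 5.20 to -2.65 and CDKN1A at A_23_P59210 from -1.57 to 0.86. CDKN2B at A_24_P360674 kept its direction, at 1.86 and 1.41. The direction of the first 3 of these differences therefore rests on the labels. For every differing probe named here beyond these 4, the call itself does. Among those are the probes of THBS1, ITGB6, ITGAV, COL4A1 and INHBB. Without MUC4-KD array 3, 12 pathway probes differed, and without array 4 it was 29. For the members the same differences, given with no test, were 3.62 for TGFBI, 2.53 and 1.86 for the SMAD3 probes and 1.51 for TGFBR2 at A_23_P211957. With the MUC4-KD ratios turned, these would change in size as well as in sign.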

How the data were processed

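CAPAN-2 RNA was measured on 8 Agilent 2-colour arrays, 4 per knockdown. The authors deposited Feature Extraction output (10.5.1.1 per the file headers), which holds the median intensity of each spot and its background per channel and a log10 ratio of Cy5 over Cy3 that the software had already corrected for background and dye. A deposited table holds the same log10 ratios turned to knockdown over control as labelled (within 2e-05) and was not used separately. The flags for outliers and for spots well above background were used as deposited.

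In R 4.3.3 with limma 3.58.1, median intensities were background corrected by normexp (offset 50) and normalized by loess within arrays, without weight for control and outlier spots. Outlier spots were left out, ratios were turned by the dyes in the labels, and spots of a probe were averaged. A probe was tested if 1 of the RNAs of an experiment was well above background on 4 of 4 arrays. The mean was tested against 0 with lmFit and eBayes, and called at a Benjamini-Hochberg adjusted p under 0.05 over all probes. The difference between experiments used 1 fit over 8 arrays. Channel levels were scaled between arrays by Aquantile. With 4 arrays an exact sign-flip test cannot go below p = 0.125. Whether the clones were cultured separately is not stated beyond their names, so p-values measure the spread between these RNAs.

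Symbols came from accessions through RefSeq (25398 probes) or the study's tables (192), and 15410 probes have none. Members and gene lists were chosen with earlier results of these data known. Named were all members and, per list and experiment, up to 5 called genes in each direction and the 2 largest not called. Some listed genes are counted but not reported here by name. The numbers 1 to 4 do not pair arrays of the 2 experiments (correlations of deviations between -0.24 and -0.05). The number of arrays limits the precision. Settings tried besides are given at the end.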

Additional observations from a re-analysis of the deposited data

Results flagged for a closer look

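An array far from the other 3 of its experiment was found in 4 of 88 sets of 4 ratios, where chance gives about 5%. TGFBR3 in ErbB2-KD had clone EV9 at 0.64, and SMAD2 at A_24_P202527 in ErbB2-KD had clone EV7 at -0.29. FKBP1A at A_23_P154667 had MUC4-KD array 1 at 1.19, and FN1 at A_24_P119745 had MUC4-KD array 2 at -0.74.

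Ratios of 23 probes of named genes differed between the experiments (MUC4-KD as labelled minus ErbB2-KD, limma over 8 arrays). MUC4 itself differed by 2.83 and 1.86 at 2 probes. Above ErbB2-KD were ANGPTL4 by 5.20, COL4A1 by 2.68, ITGB6 by 2.47, ITGAV by 2.01 and 0.66, FN1 by 1.94, CDKN2B by 1.86 and 0.99, BHLHE40 by 1.80, NEDD4L by 1.54, TPM1 by 1.18, PMEPA1 by 1.03 and RNF111 by 0.80. For COL4A1, FN1, NEDD4L, TPM1 and PMEPA1 the other tested probes did not pass. Below it were THBS1 with -5.40 and -3.79, INHBB with -3.50 and -2.71, CDKN1A with -1.57 and -0.88, and TAGLN with -1.26 and -1.23.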

How the results depend on the processing

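Many of the other settings refit the same ratios, which fixes a probe's mean. Of 417 member values under other settings, 408 moved by less than the spread or kept their side of the threshold. Exceptions were 3 for TGFBR2 in ErbB2-KD, which then passed, and 6 on the scanner software's own ratios in MUC4-KD, among them SMAD7 at 0.59, SMAD4 at 0.59 and both TGFBR2 probes at 2.59 and 1.71. On the same ratios TGFBR3 was at 0.99 and the dim TGFBR2 probe at 0.82 in ErbB2-KD, neither past the test. Counts depended more on the processing. In ErbB2-KD, 342 probes passed, against 31 with median centring, 50 without the filter, 190 with a dye term, 1095 with slide as a random block, 1121 in 1 fit over 8 arrays, 0 by the methods' t-test after adjustment, and 0 to 487 without 1 array. In MUC4-KD, 5131 passed, against 1 with median centring, 2930 without the filter, 106 by the t-test, and 154 to 9347 without 1 array. The difference was passed by 2559, against 4076 on the scanner software's own ratios, 117 with median centring, 544 by the t-test, 4433 with the MUC4-KD ratios turned, and 638 to 5060 without 1 array. With the replicate number as a block it was 583, but the numbers do not pair the arrays. Of member probes in ErbB2-KD, 1 passed on the scanner software's own ratios, with slide as a random block and in 1 fit over 8 arrays. Of pathway probes in ErbB2-KD (5), 0 passed with median centring, without the filter and by the t-test, 3 with a dye term, 9 with an intensity trend, 15 with slide and in 1 fit over 8 arrays, and 0 to 5 without 1 array. In MUC4-KD (32), 0 passed with median centring, 15 without the filter, 1 by the t-test, 20 with probes averaged per gene, and 2 to 38 without 1 array. Of pathway probes that differed (26), 1 did with median centring, 16 without the filter, 5 by the t-test, 10 with the replicate block, 16 with the MUC4-KD ratios turned, and 12 to 29 without 1 array. With probes averaged per gene, 50 genes of the pathway lists were tested in MUC4-KD in place of 86 probes. The cause of the changes in these counts was not tested. The slide block could be fitted over 8 arrays only, and turned ratios and the settings of the differing pathway probes were chosen after seeing the data.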
